A study of Mus musculus with 46 samples.

Results

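The 9 genes described here encode enzymes of the glycolytic and gluconeogenic pathways: Pck1, Fbp1, G6pc, Hk1, Hk2, Pfkp, Pkm, Ldha and Ldhb. They were taken by symbol from a table of 53465 mouse genes, in which each of them has 1 entry. The list of members was chosen with earlier results of these data known. Their RNA was measured in 4 cell populations sorted by flow cytometry from mouse kidney, LTL+ proximal tubule cells (PT, which bind Lotus lectin), F4/80+ macrophages, CD31+ endothelial cells and PDGFRB+ stromal cells. The kidneys came from sham-operated mice, from mice with unilateral ureteric obstruction (UUO), in which 1 ureter is tied, and from mice in which the obstruction was reversed (rUUO). All mice were wild type (WT) and, per the study's methods, male C57BL/6 mice 8 to 12 weeks old, with rUUO kidneys taken 14 days after reversal. The study took UUO kidneys at day 2 and day 7, and the labels do not say which day a UUO sample belongs to, so both days cannot be told apart within a UUO group. Values from 44 samples were used, as 3 sham, 4 UUO and 3 rUUO samples for PT, 4, 4 and 3 for macrophages, 4, 3 and 4 for endothelial cells, and 4, 4 and 4 for stromal cells. A PT sample titled as both sham and UUO is labelled UUO by its treatment, and it is PT UUO replicate 2 below.

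Glycolysis breaks glucose down to pyruvate, and gluconeogenesis builds glucose from lactate, amino acids and glycerol. The kidney is, with the liver, an organ that makes glucose, and it does so in the proximal tubule, whose cells live largely on fatty acid oxidation. Pck1 encodes phosphoenolpyruvate carboxykinase, Fbp1 fructose-1,6-bisphosphatase and G6pc the catalytic subunit of glucose-6-phosphatase. Each carries a step of gluconeogenesis that glycolysis cannot run backwards. Hk1 and Hk2 encode hexokinases, which trap glucose in the cell as glucose-6-phosphate. Pfkp encodes the platelet type of phosphofructokinase, the committed step of glycolysis, and Pkm encodes the muscle type of pyruvate kinase, the last step. Lactate dehydrogenase is a tetramer of the Ldha subunit, which favours the making of lactate, and the Ldhb subunit, which favours its oxidation to pyruvate.

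Levels are given in FPKM, that is, sequenced fragments scaled to transcript length and to the size of the library, so that genes can be set side by side within a sample. Changes are log2 differences of FPKM + 1 with their standard errors (SE), tested with limma, and adjusted p-values are over all genes tested in a comparison. A gene passed the test at an adjusted p under 0.05, and it was tested where its mean was at least 1 FPKM over the samples of the fit. A gene that was low after 1 surgery could therefore be tested through its level after another. In sorted bulk samples, a lower share of cells that make an RNA and less of that RNA per cell cannot be told apart.

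Each sorted population held the highest summed level of its own defining markers. Over 6 macrophage markers, this was 3847 to 7955 FPKM in macrophages and at most 45.9 FPKM in the other populations. Distal nephron markers were present too, at a summed 374 to 583 FPKM in stromal sham, beside 1255 to 2637 FPKM of stromal markers. In endothelial sham replicate 3 they were at 883 FPKM, beside 2590 FPKM of endothelial markers. Mitochondrially encoded genes took 58.7 to 75.6% of the summed FPKM in PT against 20.2 to 45.8% in the other populations, which lowers the FPKM of all other genes in PT. In PT, the share was 68.9 to 75.6% in sham and 58.7 to 66.4% in UUO, and the median gene was 0.51 higher on the log2 scale in UUO than in sham. Changes in PT are therefore to be read against that shift. A distal nephron signal moved with surgery in PT, where the summed level of 6 distal markers was 37.9 to 49.7 FPKM in sham, 412 to 515 FPKM in UUO and 154 to 239 FPKM in rUUO. Most of it came from Atp6v1g3, a proton pump subunit of intercalated cells, at 5.5 ± 1.84 FPKM in sham and 283 ± 68.4 FPKM in UUO, and from Umod, at 17.4 ± 2.21 and 147 ± 16.3 FPKM (SD, n = 3 and 4). None of the 6 distal markers was at 0 in all samples of any group. The part of this signal in the PT results was not tested.

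In sham kidneys, PT stood apart from the other 3 populations on both sides of the pathway. The 3 gluconeogenic genes were 19.1 to 70.7 times higher in PT than elsewhere, while Hk1, Pfkp and Pkm were lower in PT than in each of the others. Pck1 measured 255, 274 and 122 FPKM in the 3 PT sham samples and 3.24 to 11.9 FPKM in the 12 sham samples of the other populations. G6pc measured 97.7, 118 and 107 FPKM in PT sham and 1.38 to 6.64 FPKM elsewhere. Fbp1 was 244 ± 51.4 FPKM in PT and between 5.85 ± 1.45 FPKM (stromal) and 12.8 ± 8.70 FPKM (macrophage) in the others (SD, n = 3 and 4). No PT value of these genes overlapped with a value of another population. Among the other 3 populations, Pck1 and Fbp1 ranked macrophage, endothelial and stromal, with overlapping values between neighbours, and G6pc ranked the same way, with stromal values below all endothelial ones.

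The pyruvate kinase gene Pkm was at 1.81, 5.01 and 2.74 FPKM in PT sham, against means of 70.6 ± 11.96 FPKM in macrophages, 70.1 ± 8.58 FPKM in stromal cells and 62.3 ± 1.84 FPKM in endothelial cells (SD, n = 4 each). Hk1 was at 0.78, 1.35 and 0.49 FPKM in PT and ranked higher in macrophages (7.71 ± 2.29 FPKM), endothelial cells (14.8 ± 2.21 FPKM) and stromal cells (18.9 ± 0.81 FPKM), with no overlap between neighbours in that order. Hk2 was highest in macrophages, at 8.36, 11.1, 12.2 and 12.5 FPKM, whereas no other sham sample exceeded 0.66 FPKM. Pfkp was at 1.59 ± 0.32 FPKM in PT and at 7.55 to 11.4 FPKM on average elsewhere, where neighbours in the order overlapped. Ldhb was the most abundant member in PT sham, at 690, 797 and 432 FPKM, and Ldha was at 212, 200 and 157 FPKM. Ldhb was lowest in macrophages, at 58.7 ± 12.6 FPKM.

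Against macrophages, all 9 genes passed the test in sham, 5 higher and 4 lower in PT, where 12.6% of the 14204 genes tested were called higher and 52.4% lower. Against endothelial cells, 4 were higher and 3 lower (8.73% and 53.6% of all genes), and Hk2 and Ldha did not pass. Against stromal cells, 5 were higher and 3 lower (7.89% and 59.7%), and Hk2 did not pass. Among the members, the largest log2 differences were 5.42 ± 0.26 for G6pc against stromal cells (adjusted p = 2.41e-11 by limma) and -4.15 ± 0.22 for Pkm against macrophages (adjusted p = 5.41e-11). The median gene was 0.90, 0.93 and 1.06 lower in PT on the log2 scale in these 3 comparisons, a shift that falls on the same side as the low Hk1, Pfkp and Pkm. The share of called genes that were higher in PT was 19.3%, 14% and 11.7% as deposited, and 50%, 48.9% and 48.5% after quantile normalisation, which removes that shift. With mitochondrial genes left out it was 45.4%, 29.3% and 22.6%. Under both of these scalings, the log2 difference of Ldha from endothelial cells, 0.19 ± 0.20 as deposited, passed the test at 0.99 and 1.01.

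**Figure D1:**
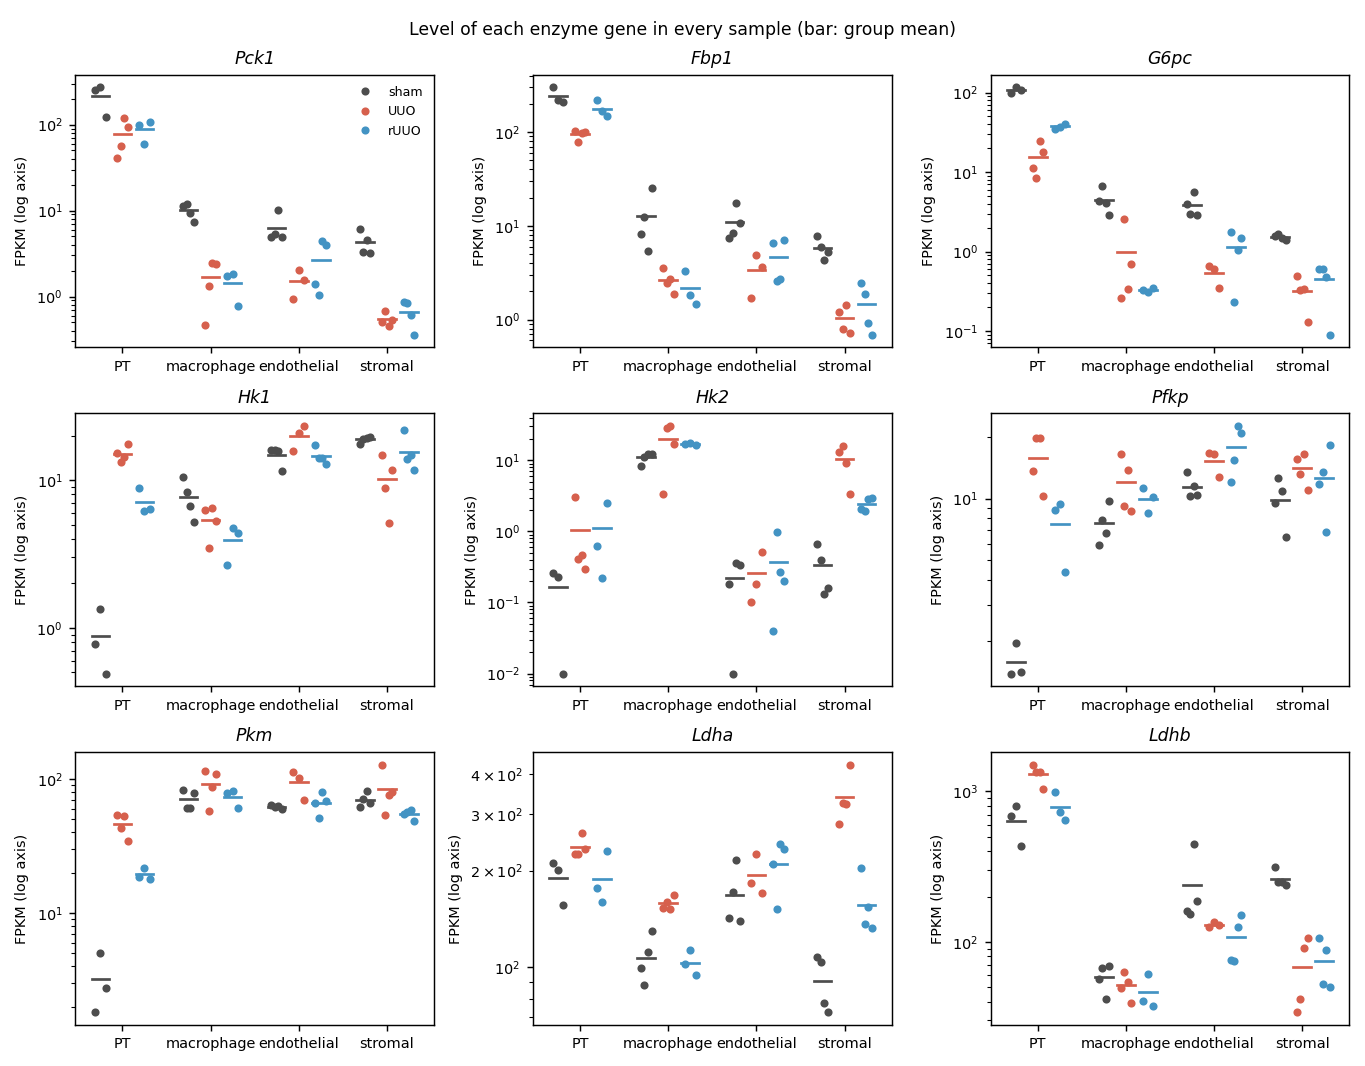
FPKM of each of the 9 genes (log axes) in all 44 samples, by population and surgery, with points for samples and bars for group means. In PT, Pck1, Fbp1 and G6pc lie below sham after UUO while Hk1, Pfkp and Pkm lie above it, and in stromal cells Hk2 and Ldha lie above sham and Ldhb below it.

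Obstruction changed both branches in PT. The 3 gluconeogenic genes fell and Hk1, Pfkp, Pkm and Ldhb rose, so that 7 of the 8 members tested passed, and Ldha was the exception. Of the 11416 genes tested, 27.9% were called higher and 4.91% lower in PT UUO against sham. Of all called genes, 85.0% were higher as deposited, 50% after quantile normalisation and 70.2% without mitochondrial genes, and the 7 members kept their direction and passed under both. Their count was 7 when each sample was left out in turn. Proximal tubule markers moved in the same samples, with 7 of 8 lower in UUO (median -1.15) and a summed level of 4494 to 5290 FPKM in sham and 1982 to 3061 FPKM in UUO. The changes of Pck1 and Fbp1 lay within the range of these markers, from -2.71 for Slc22a8 to -0.18 for Slc27a2, and that of G6pc lay below it. Of 4 stromal markers tested (of 6), Rgs5 (1.78) and Dcn (0.89) were higher, and their summed level was 17.5 to 22.7 FPKM in sham and 29.9 to 55.6 FPKM in UUO. None of the markers of either list was at 0 in all samples of a PT group. The part of both lists in the changes of the members was not tested.

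G6pc, the last step of gluconeogenesis, had the largest fall. It measured 97.7, 118 and 107 FPKM in sham and 11.2, 8.32, 24.5 and 17.7 FPKM in UUO. The groups did not overlap, and the sham mean was 6.96 times the UUO mean (log2 change -2.82 ± 0.29, adjusted p = 5.75e-06 by limma). Pck1 measured 255, 274 and 122 FPKM in sham and 40.6, 56.0, 119 and 94.1 FPKM in UUO. Its lowest sham sample (122 FPKM) lay just above its highest UUO sample (119 FPKM), and the fall was -1.51 ± 0.36 (adjusted p = 0.00645 by limma). Fbp1 measured 303, 218 and 210 FPKM in sham and 102, 78.2, 98.4 and 99.3 FPKM in UUO, a fall of -1.34 ± 0.20 (adjusted p = 1.76e-04 by limma). Every UUO sample of Fbp1 was below every sham sample.

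On the glycolytic side, the entry enzyme Hk1 measured 0.78, 1.35 and 0.49 FPKM in sham and 15.4, 13.2, 14.3 and 17.5 FPKM in UUO. The UUO mean was 17.3 times the sham mean (3.12 ± 0.26, adjusted p = 7.41e-07 by limma). Hk1 in obstructed PT thus stood at 15.1 ± 1.82 FPKM, beside 20.02 ± 3.85 FPKM in endothelial UUO samples (SD, n = 4 and 3). The sham mean of Hk1 in PT was 0.87 FPKM, under the filter of 1 FPKM, so it was tested through its levels after UUO and rUUO. Pfkp measured 1.39, 1.96 and 1.42 FPKM in sham and 13.6, 19.9, 19.7 and 10.3 FPKM in UUO, a ratio of means of 9.98 (2.66 ± 0.31, adjusted p = 2.17e-05 by limma). Pkm measured 1.81, 5.01 and 2.74 FPKM in sham and 54.0, 43.0, 53.0 and 34.4 FPKM in UUO, a ratio of means of 14.5 (3.54 ± 0.27, adjusted p = 3.80e-07 by limma). For all 3 genes, every UUO sample was at least 5 times the highest sham sample. The table gives 1 value per gene, so the M1 and M2 isoforms of Pkm, which differ in regulation, were not separated. Hk2 was at 0.01 to 0.26 FPKM in sham and at 0.41, 0.46 and 0.30 FPKM in 3 of the 4 UUO samples, with 3.04 FPKM in replicate 1. Its mean over the PT samples was under 1 FPKM, and it was not tested.

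The lactate dehydrogenase genes moved by different amounts in PT. Ldhb measured 690, 797 and 432 FPKM in sham and 1508, 1345, 1341 and 1037 FPKM in UUO, and rose by 1.06 ± 0.22 (adjusted p = 0.00238 by limma). Ldha measured 212, 200 and 157 FPKM in sham and 225, 225, 262 and 234 FPKM in UUO. All UUO values of Ldha were above all sham values, but the change of 0.33 ± 0.18 did not pass (adjusted p = 0.174 by limma) and was below the 0.51 shift of the median gene. Across the other scalings and settings the change of Ldha was between 0.01 and 0.34.

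Reversal brought some of these levels part of the way back. In PT rUUO against UUO, Fbp1 (0.89 ± 0.20, adjusted p = 0.0267 by limma) and G6pc (1.33 ± 0.29, adjusted p = 0.0251) rose, and Hk1 (-0.99 ± 0.26, adjusted p = 0.0488) and Pkm (-1.19 ± 0.27, adjusted p = 0.0295) fell, where 0.674% of all genes were called higher and 3.15% lower. Of called genes, 17.6% were higher as deposited, 58.8% after quantile normalisation and 55.0% without mitochondrial genes. Hk1 (-0.74 and -0.88) and Pkm (-1.01 and -1.03) did not pass under either of these scalings, with adjusted p between 0.0521 and 0.159. With the filter on low values removed none of them passed, and without PT UUO replicate 1, rUUO replicate 2 or rUUO replicate 3 the count was 0. It was 1 without UUO replicate 2 or 3 or rUUO replicate 4, and 3 without UUO replicate 4.

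Against sham, G6pc was still lower after reversal (35.1, 37.3 and 40.2 FPKM, -1.49 ± 0.31, adjusted p = 0.00745 by limma), a call that ended with no filter on low values (adjusted p = 0.0530). Proximal tubule markers were also still lower, 3 of 8 by the test (median -0.79), with a summed level of 2731 to 2873 FPKM, and their part in the level of G6pc was not tested. Hk1 (8.83, 6.21 and 6.35 FPKM, 2.13 ± 0.28, adjusted p = 1.83e-04), Pfkp (8.83, 9.38 and 4.39 FPKM, 1.67 ± 0.33, adjusted p = 0.00555) and Pkm (18.6, 21.5 and 18.0 FPKM, 2.35 ± 0.29, adjusted p = 1.10e-04) were still higher. The background was 6.52% higher and 0.946% lower. Of called genes 87.3% were higher as deposited, 68.6% after quantile normalisation and 79.0% without mitochondrial genes. In every one of these 4 genes the rUUO samples lay between the sham and the UUO samples without overlap. How many of all genes are ordered in this way was not counted. Pck1 was at 88.3 ± 25.1 FPKM after reversal, with a change of -1.25 ± 0.39 against sham that did not pass as deposited (adjusted p = 0.0687 by limma) and passed under quantile normalisation (-1.37, adjusted p = 0.0184) and without mitochondrial genes (-1.36, adjusted p = 0.0233).

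**Figure D2:**
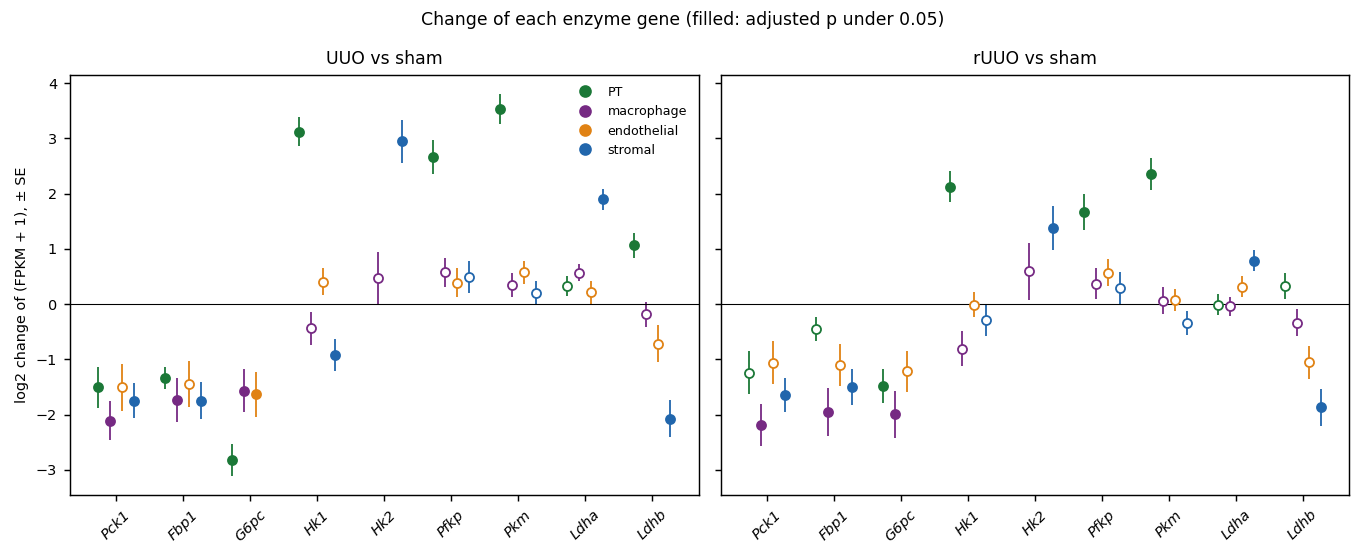
Log2 change of FPKM + 1 with its SE for the 9 genes in the 4 populations, UUO against sham on the left and rUUO against sham on the right, with filled points for an adjusted p under 0.05. Hk1, Pfkp and Pkm are called higher in PT alone, and Hk2 and Ldha in stromal cells alone.

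Stromal cells gave another set of changes after obstruction. Hk2 and Ldha rose and Ldhb, Hk1, Pck1 and Fbp1 fell, so that 6 of the 8 members tested passed, with 13.4% of 14033 genes called higher and 13% lower. Among these, Hk2 was at most 0.66 FPKM in sham and Pck1 at most 0.68 FPKM in UUO, under the filter of 1 FPKM. With no filter on low values, 7 members passed. Of called genes, 50.8% were higher as deposited and after quantile normalisation, and 39.2% without mitochondrial genes. Hk2 measured 0.66, 0.39, 0.13 and 0.16 FPKM in sham and 13.1, 16.0, 9.31 and 3.38 FPKM in UUO. All UUO samples were above all sham samples, with a spread of more than 4 times among themselves, and the log2 change was 2.95 ± 0.39 (adjusted p = 4.45e-05 by limma). Ldha measured 108, 104, 77.6 and 72.4 FPKM in sham and 280, 324, 323 and 427 FPKM in UUO, a ratio of means of 3.74 (1.90 ± 0.19, adjusted p = 3.02e-06 by limma). With 338 ± 62.5 FPKM, stromal UUO samples held the highest group mean of Ldha among the 12 groups.

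Ldhb measured 312, 248, 249 and 239 FPKM in stromal sham and 33.9, 41.9, 91.1 and 106 FPKM in UUO, a fall of -2.08 ± 0.33 (adjusted p = 2.41e-04 by limma). Hk1 measured 17.7, 19.0, 19.3 and 19.5 FPKM in sham and 14.8, 8.82, 5.09 and 11.8 FPKM in UUO, a fall of -0.92 ± 0.28 (adjusted p = 0.0250 by limma). The groups of Hk1 did not overlap, but its call held in 3 of the 8 fits that left out 1 sample. It ended without sham replicate 2, 3 or 4, where the change was -0.92 to -0.91, and without UUO replicate 2 (-0.89) or 3 (-0.66). Pfkp (0.49 ± 0.29) and Pkm (0.20 ± 0.22) did not pass, and their samples overlapped with sham.

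Pck1 (4.29 ± 1.33 to 0.54 ± 0.10 FPKM) and Fbp1 (5.85 ± 1.45 to 1.03 ± 0.34 FPKM) each fell by 1.75 in stromal cells (SE 0.32 and 0.33, adjusted p = 6.99e-04 and 0.00107 by limma), and G6pc went from 1.38 to 1.67 FPKM in sham to 0.13 to 0.49 FPKM in UUO, untested for its low mean. Beside these low levels, the summed proximal tubule markers went from 79.8 to 133 FPKM in sham to 18.0 to 25.5 FPKM in UUO, and 6 of these 8 markers could be tested, all of which fell. The summed distal nephron markers went from 374 to 583 FPKM to 30.4 to 62.3 FPKM, and all 6 fell, with a median of -3.80. Slc12a3, the sodium chloride cotransporter of the distal convoluted tubule, went from 128 ± 58.8 to 4.38 ± 3.06 FPKM. No marker of either list was at 0 in all samples of a stromal group. The part of these tubular markers in the falls of Ldhb, Hk1, Pck1 and Fbp1 was not tested. Of 6 stromal markers, 4 rose, among them Col1a1 (174 to 2513 FPKM, log2 change 4.01), Pdgfrb fell (212 to 117 FPKM) and Rgs5 did not pass.

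After reversal, Hk2 (2.06, 1.93, 2.86 and 2.97 FPKM) and Ldha (203, 137, 154 and 133 FPKM) in stromal cells were lower than in UUO, by -1.57 ± 0.39 (adjusted p = 0.0377 by limma) and -1.11 ± 0.19 (adjusted p = 0.00577), where 2.95% of genes were called higher and 1.22% lower. Of called genes, 70.8% were higher as deposited, 53.3% after quantile normalisation and 64.2% without mitochondrial genes. The call of Hk2 ended without UUO replicate 1, 2 or 3 or any 1 of the 4 rUUO replicates, with adjusted p between 0.0527 and 0.105. Against sham, 5 members still passed, Hk2 (1.38 ± 0.39) and Ldha (0.78 ± 0.19) higher and Pck1 (-1.65 ± 0.32), Fbp1 (-1.50 ± 0.33) and Ldhb (-1.87 ± 0.33) lower, where 11.6% of genes were called higher and 5.57% lower. Tubular markers were also still lower, all 6 distal nephron markers (median -2.74, a summed 56.0 to 99.1 FPKM) and 3 of the 6 proximal tubule markers tested (median -1.15, a summed 15.4 to 74.7 FPKM over 8). Their part in the falls of Pck1, Fbp1 and Ldhb was not tested. Of called genes, 67.6% were higher as deposited, 51.5% after quantile normalisation and 51.4% without mitochondrial genes. Without mitochondrial genes, the change of Ldha was 0.56 and did not pass (adjusted p = 0.0633). The call of Hk2 against sham ended without sham replicate 3 or 4 or rUUO replicate 4 or 6, and with no filter on low values (adjusted p = 0.0663 by limma). Ldhb was at 50.2 to 107 FPKM after reversal, and its change from UUO was 0.21 ± 0.33 (adjusted p = 0.774 by limma).

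The 2 patterns were compared directly by testing the difference between the change in PT and the change in another population, UUO against sham. Against stromal cells, 7 of 9 members passed (29.2% of 14332 genes were called). The change in PT exceeded that in stromal cells by 4.04 ± 0.35 for Hk1, 3.34 ± 0.33 for Pkm, 3.14 ± 0.46 for Ldhb and 2.17 ± 0.38 for Pfkp. It was lower by 2.31 ± 0.62 for Hk2 and by 1.57 ± 0.26 for Ldha, each written here as the size of a negative difference. For these 6, the adjusted p was at most 0.00402 by limma, and each call held in all 15 fits that left out 1 sample. For G6pc the difference was -1.89 ± 0.42 (adjusted p = 6.79e-04), and it was -0.89 (adjusted p = 0.381) with a pseudocount of 0.1, under which the low stromal values count for more. The differences of Pck1 (0.24 ± 0.49) and Fbp1 (0.40 ± 0.48) did not pass.

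Against macrophages, Hk1 (3.56 ± 0.35), Pkm (3.19 ± 0.33), Pfkp (2.08 ± 0.38) and G6pc (-1.26 ± 0.42, adjusted p = 0.0380 by limma) passed, 4 of 9 members where 15.5% of genes were called. That of G6pc was -0.39 (adjusted p = 0.774) with a pseudocount of 0.1 and held in 6 of 15 fits that left out 1 sample. Against endothelial cells, Pkm (2.97 ± 0.34), Hk1 (2.71 ± 0.37), Pfkp (2.28 ± 0.40) and Ldhb (1.78 ± 0.47) passed, 4 of 9 where 11.1% were called. So Hk1, Pfkp and Pkm changed more in PT than in each of the other 3 populations. Of all called genes, the share with a more positive change in PT was 88.6%, 90.5% and 78.9% against macrophages, endothelial cells and stromal cells as deposited, 56.9%, 61.2% and 50.5% after quantile normalisation and 81.6%, 88.9% and 79.7% without mitochondrial genes. The median gene lay at 0.45, 0.40 and 0.51 in these comparisons, well below the differences of the 3 genes. These comparisons share the PT samples. Summed distal nephron markers went from 37.9 to 49.7 FPKM in PT sham to 412 to 515 FPKM in PT UUO. They fell in stromal cells (374 to 583 FPKM, then 30.4 to 62.3 FPKM) and in macrophages (63.1 to 110 FPKM, then 20.6 to 46.6 FPKM). In endothelial cells the sham and UUO ranges overlapped (173 to 883 FPKM and 67.8 to 228 FPKM). The part of these markers in the differences between PT and the other populations was not tested.

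In macrophages, the gluconeogenic genes were the only members called after obstruction, and all 3 were lower. Pck1 went from 7.39 to 11.9 FPKM in sham to 0.46 to 2.47 FPKM in UUO (-2.11 ± 0.35, adjusted p = 0.00345 by limma). Fbp1 (-1.73 ± 0.40, adjusted p = 0.0253) and G6pc (-1.57 ± 0.39, adjusted p = 0.0362) followed, where 2.86% of 13332 genes were called higher and 2.13% lower. The call of Fbp1 ended without sham replicate 2 or 4 or UUO replicate 4, and that of G6pc without sham replicate 1, 2 or 3 or UUO replicate 1, 3 or 4. The count of members called was 1 without sham replicate 2 or UUO replicate 4. Ldha measured 99.2, 88.0, 112 and 130 FPKM in sham and 152, 160, 152 and 168 FPKM in UUO, without overlap, and its change of 0.57 ± 0.16 lay at the threshold (adjusted p = 0.0506 by limma). It passed without sham replicate 4 (adjusted p = 0.0366). Hk2 measured 28.3, 30.7 and 16.9 FPKM in 3 UUO samples and 3.37 FPKM in replicate 1, against 8.36 to 12.5 FPKM in sham, and its change was 0.46 ± 0.48 with that sample and 1.10 (adjusted p = 0.0348) without it. Lymphocyte and neutrophil markers were also higher in these UUO samples, at a summed 19.3 to 61.5 FPKM against 1.84 to 4.47 FPKM in sham over 4 genes, none of them at 0 in all UUO samples, and their part in the macrophage values was not tested. Of 8 proximal tubule markers, 4 of 7 tested fell in the same samples, with a median of -1.37 and a summed level of 233 to 356 FPKM in sham and 68.0 to 119 FPKM in UUO, and their part in the falls of the gluconeogenic genes was not tested. With no filter on low values, Fbp1 and G6pc did not pass (adjusted p = 0.0767 and 0.0908 by limma).

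No member passed in macrophages between rUUO and UUO, where limma called 0% of genes higher and 0% lower, with 945 at an unadjusted p under 0.05. Against sham the same 3 genes were lower (1.89% of genes called higher and 1.55% lower), with changes of -2.19 ± 0.38 for Pck1, -1.95 ± 0.43 for Fbp1 and -1.998 ± 0.43 for G6pc. Of the proximal tubule markers, 5 of 7 tested were lower in the same comparison (median -1.97), with a summed level of 233 to 356 FPKM in sham and 50.2 to 61.7 FPKM in rUUO, and their part in these falls was not tested. The count of members called was 1 without sham replicate 2, rUUO replicate 4 or rUUO replicate 6, and Pck1 held in all 7 fits that left out 1 sample. Ldha returned to 94.8 to 113 FPKM in the rUUO samples, below all 4 UUO samples, with a change of -0.61 ± 0.17 that did not pass (adjusted p = 0.392).

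In endothelial cells, the 3 gluconeogenic genes had lower means in UUO than in sham, and 1 of them passed the test. Their UUO and sham samples did not overlap, and how many of all genes separate in this way was not counted. G6pc passed narrowly (-1.63 ± 0.40, adjusted p = 0.0497 by limma), at 0.35 to 0.65 FPKM in UUO against 2.89 to 5.57 FPKM in sham, where 1.28% of 13393 genes were called higher and 0.702% lower. That call ended when any 1 of the 7 samples was left out, with adjusted p between 0.0692 and 0.144. Pck1 was at 4.92 to 10.1 FPKM in sham and 0.94 to 2.05 FPKM in UUO (-1.51 ± 0.43, adjusted p = 0.0912 by limma). Fbp1 was at 7.36 to 17.5 FPKM in sham and 1.71 to 4.85 FPKM in UUO (-1.44 ± 0.41, adjusted p = 0.0993). Both passed with all 4 populations in 1 fit (adjusted p = 0.0104 and 0.0135 by limma). The change in PT minus that in endothelial cells was -0.0008 ± 0.50 for Pck1 and 0.10 ± 0.50 for Fbp1. The summed proximal tubule markers were at 104 to 345 FPKM in endothelial sham and 71.6 to 116 FPKM in UUO, with a median change of -0.95 over the 8 markers, none of which passed or was at 0 in all samples of a group, and their part in these values was not tested. Pkm was at 114, 102 and 69.5 FPKM in UUO against 60.2 to 64.3 FPKM in sham, without overlap, and did not pass (0.57 ± 0.21, adjusted p = 0.216). Ldhb was at 161, 153, 449 and 187 FPKM in sham and 125, 135 and 129 FPKM in UUO, again without overlap and not called (-0.71 ± 0.33, adjusted p = 0.363). The sham sample with 449 FPKM, replicate 3, also had the highest summed distal nephron markers of the endothelial samples (883 FPKM against 67.8 to 342 FPKM in the others) and the highest proximal tubule sum (345 FPKM). The part of these markers in its Ldhb was not tested. No member passed between rUUO and UUO (0.0448% of genes higher, 0.0149% lower) or between rUUO and sham (1.4% higher, 0.366% lower), where Ldhb changed by -1.06 ± 0.31 (adjusted p = 0.108). In that last comparison, Pck1 (-1.06 ± 0.39), Fbp1 (-1.11 ± 0.38) and G6pc (-1.22 ± 0.37) were again without overlap and not called (adjusted p from 0.132 to 0.226 by limma), and G6pc and Ldhb passed with all 4 populations in 1 fit (adjusted p = 0.00937 and 0.0491). Of called genes in the 3 comparisons, 64.5%, 75.0% and 79.3% were higher as deposited, 55.6%, 45.5% and 61.1% after quantile normalisation and 48.4%, 80.0% and 77.9% without mitochondrial genes, in the order UUO against sham, rUUO against UUO and rUUO against sham.

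The low levels of the gluconeogenic genes outside PT were set beside proximal tubule markers, each as a percent of its PT mean after the same surgery. In sham, Pck1, Fbp1 and G6pc stood at 4.63%, 5.24% and 4.16% of PT in macrophages, where the 8 markers had a median of 4.76%. In endothelial cells they stood at 2.91%, 4.51% and 3.59% (markers, median 3.5%, range 2.64 to 4.66%), and in stromal cells at 1.98%, 2.40% and 1.41% (median 2.73%, range 1.32 to 3.58%). In sham, all 9 values thus fell within the range of the markers in their population. Ldhb lay above the range in endothelial (37.1% of PT) and stromal (41.0%) sham samples. In macrophage sham it was at 9.17%, within a marker range of 3.59 to 34.5%. The upper end of that range was Slc13a3, and the next marker was Kap at 5.86%. After UUO or rUUO, 14 of 18 values fell within the range of the markers. The exceptions were Pck1 (0.70%) and G6pc (2.09%) in stromal UUO, where the markers ranged from 0.71 to 2.07%, G6pc in macrophage rUUO (0.88%, lowest marker 0.94%) and Pck1 in stromal rUUO (0.75%, lowest marker 0.77%). In UUO, G6pc was at 6.30% in macrophages, above 7 of the 8 markers, and this mean rested on replicate 2 (2.60 FPKM against 0.26 to 0.69 FPKM in the other 3). One marker, Slc13a3, was at 34.5% of PT in macrophage sham samples and so is not specific to PT here. It also set the upper end of the macrophage range in UUO (48.4%) and rUUO (42.6%). Without Slc13a3, G6pc in macrophage UUO would lie above the range, whose next marker was Slc22a8 at 5.49%. How many other genes fall within these ranges was not counted.

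**Figure D3:**
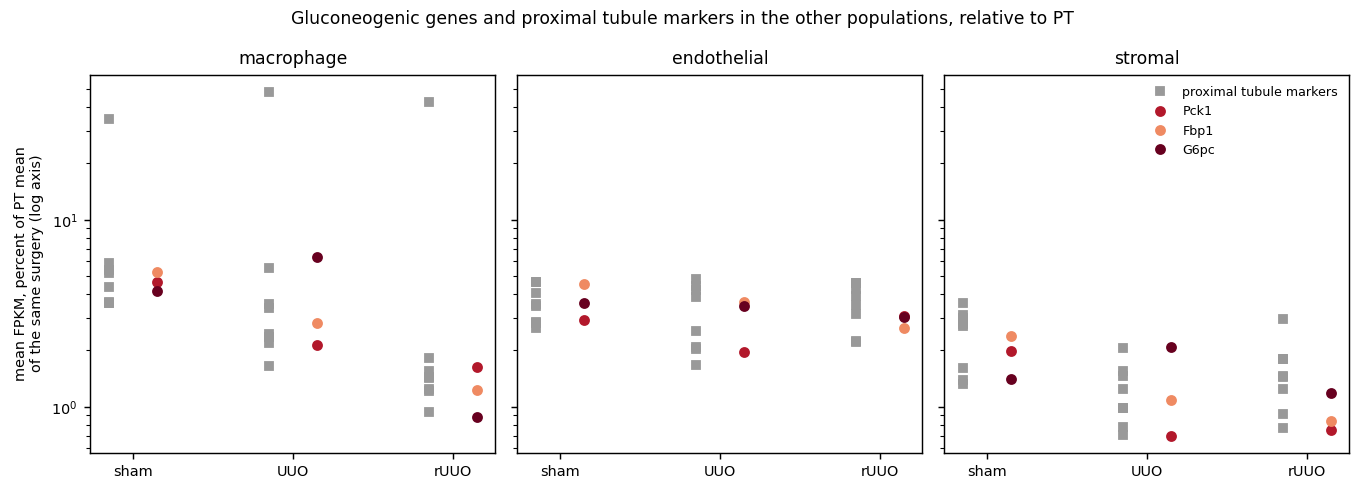
Mean FPKM of Pck1, Fbp1 and G6pc (circles) and of 8 proximal tubule markers (grey squares) in macrophages, endothelial cells and stromal cells, as a percent of the PT mean after the same surgery, on a log axis. In sham, all 3 genes lie within the range of the markers in each population, and the macrophage marker near 34.5% is Slc13a3.

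A ratio within a sample does not depend on the scaling between samples, so the isoenzymes were also compared as shares. A share still depends on the mix of cells in the sample. Summed distal nephron markers went from 374 to 583 FPKM in stromal sham to 30.4 to 62.3 FPKM in stromal UUO. In PT they went from 37.9 to 49.7 FPKM in sham to 412 to 515 FPKM in UUO. The part of these markers in the Ldha and Hk2 shares was not tested. Ldha made up 25.6 ± 2.86% of the summed Ldha and Ldhb in stromal sham samples, 84.0 ± 5.72% in UUO and 68.5 ± 4.66% in rUUO (SD, n = 4 each). Samples were 23.2 to 29.6%, 78.0 to 89.2% and 63.4 to 72.6%, so the 3 groups did not overlap. In PT the share was 23.4 ± 3.25% in sham (n = 3) and 15.5 ± 2.36% in UUO (n = 4), also without overlap. It was lower by 7.89 points after obstruction, whereas it was higher by 58.4 points in stromal cells. In endothelial cells it was 43.8 ± 8.61%, 59.7 ± 2.75% and 66.7 ± 5.17% in sham, UUO and rUUO, and in macrophages 64.6 ± 6.57%, 75.6 ± 4.05% and 69.4 ± 4.01%.

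The exact two-sided permutation test gave p = 0.0286 for the Ldha share in PT (UUO against sham), in endothelial cells (rUUO against sham) and in all 3 stromal comparisons, which is the smallest p these group sizes allow. Adjusted over the 12 comparisons, these became 0.0686 in exact permutation tests, so that none passed. With groups this small, a single comparison could not pass after this adjustment by itself, however far apart its groups lay. The Hk2 share of Hk1 and Hk2 went from 1.77 ± 1.36% in stromal sham samples to 49.6 ± 20% in UUO and 14.3 ± 5.05% in rUUO, with no overlap (exact permutation p = 0.0286 each, 0.114 adjusted over 12). In macrophages it was 59.1 ± 11.3%, 70.7 ± 24.4% and 81.3 ± 4.42%, and in endothelial cells at most 6.45% in any sample. In PT it was 13.9 ± 11.5% in sham and 6.08 ± 6.99% in UUO, shares that rest on Hk2 levels under 0.27 FPKM in sham.

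**Figure D4:**
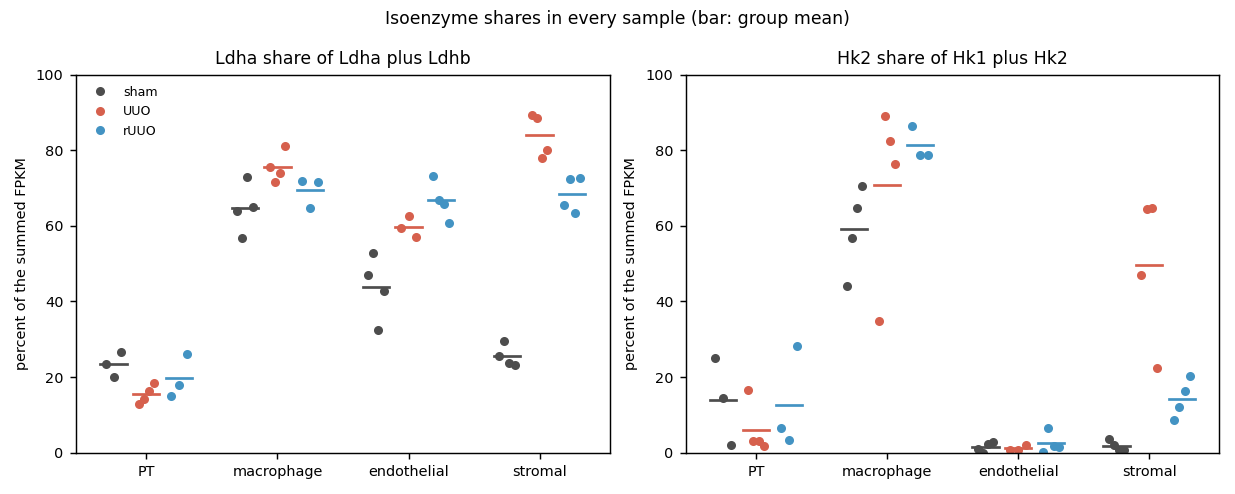
Share of Ldha in the summed FPKM of Ldha and Ldhb (left) and of Hk2 in that of Hk1 and Hk2 (right), in percent, for each sample, with bars for group means. The stromal Ldha share goes from 23.2 to 29.6% in sham to 78.0 to 89.2% in UUO, while PT stays at or below 26.6% in all samples.

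The promoters of 5 members are shown as examples. They are G6pc and Pck1, which fell in PT, Pfkp, which rose there, and Ldha and Hk2, which rose in stromal cells. Fbp1, Hk1 and Pkm also moved in PT and are not shown, nor is the other start of Ldha. Each run is 300 bases, from 250 before to 50 after a transcription start, taken from RefSeq on build GRCm38.p6 and written 5′ to 3′ on the gene's strand. Capitals mark the letters ACGTG or GCGTG, the core of the hypoxia response element, as well as TATAAA (the TATA box) and GTTAAT (a half-site of the HNF1 factors), each searched on both strands. Overlapping matches run together, and ACGTG on 1 strand can overlap its reverse on the other.
G6pc, chr11:101367466-101367765, plus strand: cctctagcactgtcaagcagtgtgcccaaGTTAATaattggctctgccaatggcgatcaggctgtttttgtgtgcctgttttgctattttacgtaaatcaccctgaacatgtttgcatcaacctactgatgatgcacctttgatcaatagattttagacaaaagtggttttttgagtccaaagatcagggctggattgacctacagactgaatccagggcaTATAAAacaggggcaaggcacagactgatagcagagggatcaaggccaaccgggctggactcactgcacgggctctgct
Pck1, chr2:173152823-173153122, plus strand: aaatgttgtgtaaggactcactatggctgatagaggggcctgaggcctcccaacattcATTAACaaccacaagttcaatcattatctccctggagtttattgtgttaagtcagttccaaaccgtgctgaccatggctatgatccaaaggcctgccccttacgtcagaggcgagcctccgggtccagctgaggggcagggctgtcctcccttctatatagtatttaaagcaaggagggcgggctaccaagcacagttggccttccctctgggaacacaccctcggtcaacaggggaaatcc
Pfkp, chr13:6648722-6649021, minus strand: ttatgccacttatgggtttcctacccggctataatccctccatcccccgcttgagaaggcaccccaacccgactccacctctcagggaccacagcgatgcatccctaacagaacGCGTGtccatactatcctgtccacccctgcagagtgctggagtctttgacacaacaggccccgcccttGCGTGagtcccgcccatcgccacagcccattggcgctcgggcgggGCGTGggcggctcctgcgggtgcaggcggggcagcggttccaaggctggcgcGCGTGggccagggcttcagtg
Ldha, chr7:46845554-46845853, plus strand: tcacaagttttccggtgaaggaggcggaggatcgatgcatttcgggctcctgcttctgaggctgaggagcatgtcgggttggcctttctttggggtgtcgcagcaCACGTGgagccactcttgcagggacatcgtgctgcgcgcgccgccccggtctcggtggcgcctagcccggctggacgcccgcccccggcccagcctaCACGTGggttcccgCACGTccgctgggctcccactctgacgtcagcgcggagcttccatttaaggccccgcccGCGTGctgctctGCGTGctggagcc
Hk2, chr6:82774405-82774704, minus strand: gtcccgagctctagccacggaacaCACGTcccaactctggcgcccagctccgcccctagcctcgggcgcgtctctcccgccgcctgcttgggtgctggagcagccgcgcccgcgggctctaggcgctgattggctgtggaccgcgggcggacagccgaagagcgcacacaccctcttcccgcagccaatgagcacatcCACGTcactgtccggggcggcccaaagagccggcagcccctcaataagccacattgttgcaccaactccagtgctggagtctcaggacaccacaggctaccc

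All 9 members had an entry in the promoter table, with 2 starts each for Hk1, Ldha and Pkm. The hypoxia core was matched 7 times in the Ldha promoter shown and 2 times in the other, 4 times in Pfkp, 2 times in Hk2, 5 times in 1 of the Hk1 promoters, 2 times in 1 of the Pkm promoters and 1 time in Ldhb. It was not found in these windows for Pck1, Fbp1 or G6pc, nor at the other start of Hk1 or of Pkm. In the Ldha promoter shown, each CACGTG stretch counts as 2 of the matches. Of all 32851 promoters of this length in the table, 43.8% held it, so a match is common. The GTTAAT half-site was found 1 time each in G6pc and Pck1 (7.10% of all promoters), and TATAAA 1 time in G6pc (13.6%). The GC content was 67.3% in Hk2 and in the Ldha promoter shown and 46.7% in G6pc, against a median of 52.7% over all promoters.

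The genes around these members in the pathway were described from lists. In PT UUO against sham, 3 of 14 other glycolytic enzymes that were tested (of 17) rose and none fell, with a median change of 0.51, equal to that of all genes. Of all genes, 27.9% were called higher, so that these 3 of 14 are no more than the background. Without mitochondrial genes, 1 of them fell. Those that rose were Aldoa (169 to 364 FPKM, 1.10 ± 0.17), the hexokinase-like Hkdc1 (0.01 to 2.90 FPKM, 1.89) and the mutase Pgam2 (2.02 to 8.91 FPKM, 1.88), the last not called after quantile normalisation. Gapdh, added here after its values were seen, was at 1276 ± 321 FPKM in sham and 1187 ± 184 FPKM in UUO (SD, n = 3 and 4). Among other gluconeogenic and fructose enzymes, 4 of 7 tested (of 8) fell and none rose, with a median of -1.11, beside 4.91% of all genes called lower. Slc37a4, the carrier that brings glucose-6-phosphate to G6pc, went from 30.2 to 6.87 FPKM (-2.02), Khk, ketohexokinase, from 425 to 178 FPKM (-1.22), Pcx, pyruvate carboxylase, from 23.3 to 7.63 FPKM (-1.49) and Tkfc, triokinase, from 62.7 to 28.5 FPKM (-1.11).

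Of the carriers of glucose and lactate, 7 were tested (of 9) in PT. There, 3 rose and 4 fell, beside 27.9% of all genes called higher and 4.91% lower. Slc5a1, among those that rose, was not called under either other scaling. Slc2a1, the ubiquitous glucose carrier GLUT1, went from 3.34 ± 0.48 to 51.2 ± 5.39 FPKM (3.59, adjusted p = 2.15e-08 by limma) and was at 14.7 ± 0.73 FPKM after reversal. Slc5a2, the SGLT2 carrier that takes up filtered glucose, fell from 261 to 42.8 FPKM (-2.57), and Slc2a2, which passes glucose on to the blood, fell from 52.6 to 13.5 FPKM (-1.87). Slc16a7, a monocarboxylate carrier, rose from 1.51 to 12.9 FPKM (2.46). Of the other lists, Pfkfb3, which makes the activator of phosphofructokinase, rose (1.62, not called after quantile normalisation). So did Pdk4 (2.49) and Pdk1 (1.23, not called after quantile normalisation), kinases that hold back pyruvate dehydrogenase, while Mpc1, a subunit of the mitochondrial pyruvate carrier, fell (-0.71), 1 of 9 genes of pyruvate entry as deposited and 4 under either other scaling. Among 10 factors, Myc (2.07) and Hif1a (1.35, 4.66 to 13.5 FPKM) rose and Hnf4a (-0.74) fell, again no more risen genes than the 27.9% of all genes.

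In stromal cells, none of the 13 other glycolytic enzymes tested rose and 3 fell (Pgam2, Pfkm and Aldoc), with a median of 0.32, beside 13.4% of all genes called higher and 13% lower. Aldoc was not called after quantile normalisation. Of 8 carriers tested, Slc16a1 (0.83 to 16.2 FPKM, 3.10) and Slc16a3 (1.03 to 6.02 FPKM, 1.51), both of which move lactate across the membrane, rose. Slc16a7 (24.0 to 1.60 FPKM, -3.31) fell, as did Slc5a1 (-1.47), Slc5a2 (-1.34, not called after quantile normalisation) and Slc2a1, which went from 37.0 to 20.5 FPKM (-0.85). The change in PT minus that in stromal cells was 4.44 ± 0.45 for Slc2a1, 5.78 ± 0.65 for Slc16a7 and -4.11 ± 0.46 for Slc16a1 (adjusted p at most 6.58e-09 by limma). Slc2a1 and Slc16a3 in stromal cells and Slc16a1 in PT were chosen after their values were seen. Myc (2.90 to 21.3 FPKM, 2.46) and Hif1a (0.99) rose, and Epas1 (424 to 73.1 FPKM, -2.58) and Ppargc1a (-2.16) fell. The tubular markers given above fell in the same comparison, and their part in the falls of these listed genes was not tested. In macrophages, none of 13 other glycolytic enzymes passed and 2 of 6 other gluconeogenic and fructose enzymes fell (Pcx and Tkfc). Of all genes there, 2.86% were called higher and 2.13% lower. In endothelial cells none of 11 and none of 6 passed, beside 1.28% of all genes called higher and 0.702% lower.

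**Figure D5:**
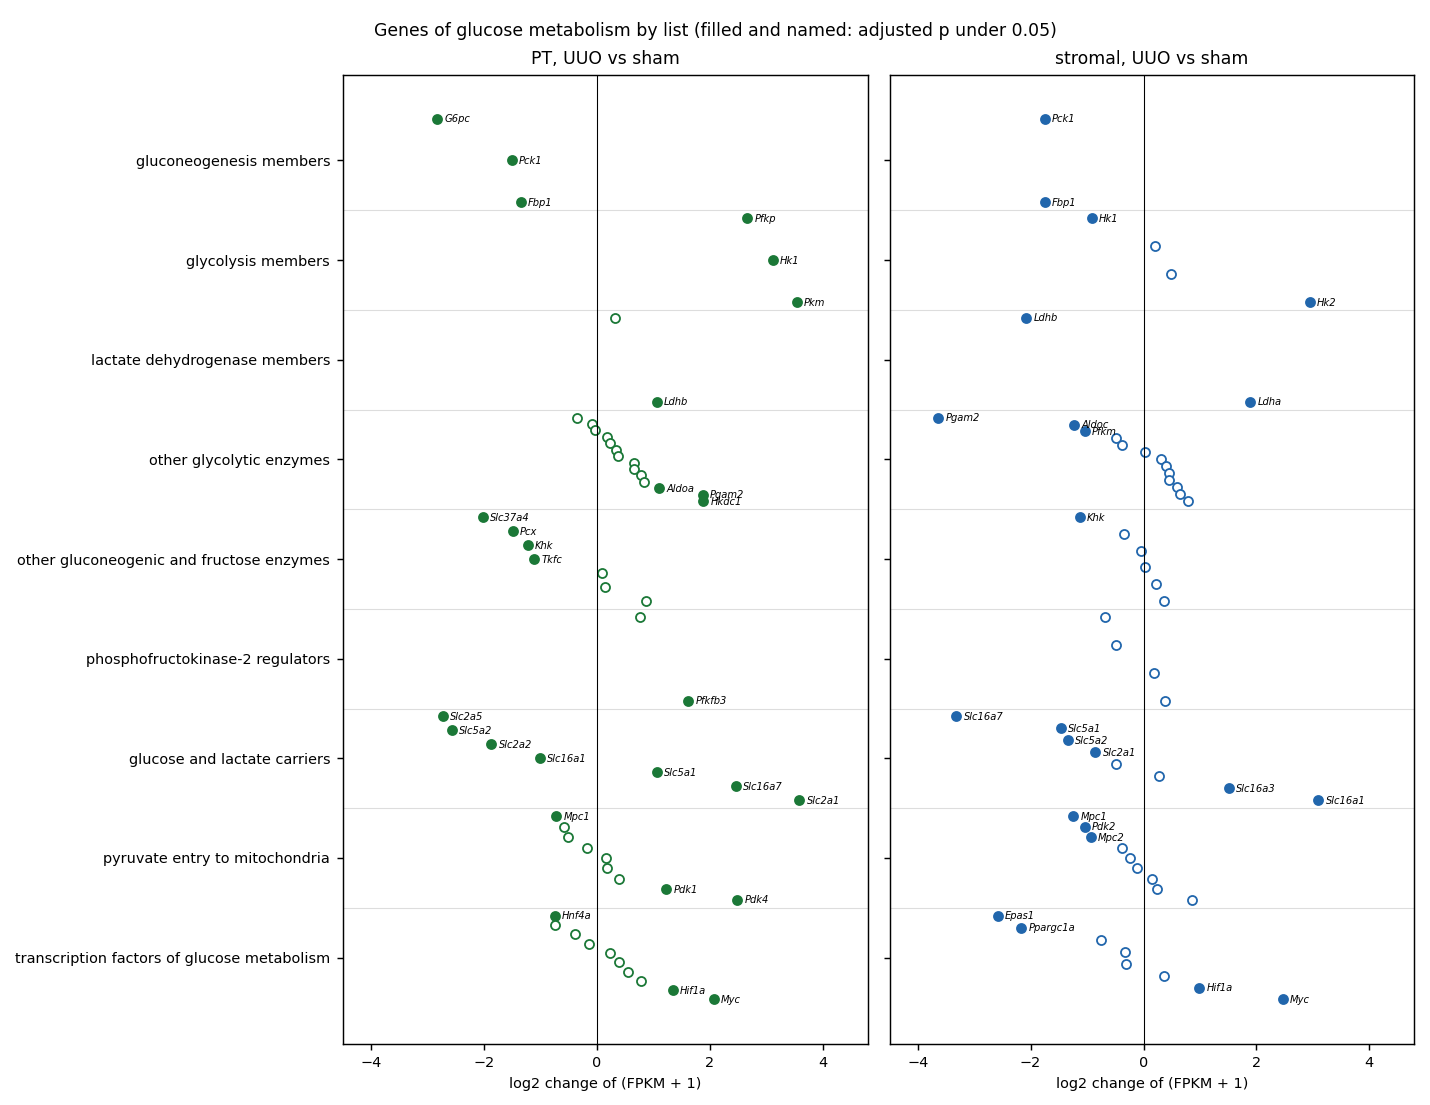
Log2 change of FPKM + 1, UUO against sham, for the 9 members and the other listed genes of glucose metabolism that were tested, in PT (left) and stromal cells (right), with filled and named points for an adjusted p under 0.05. Slc2a1 lies at 3.59 in PT and -0.85 in stromal cells, and Slc16a1 at -1.01 and 3.10.

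The genes most like each member over the 44 samples were named by the Pearson correlation of log2(FPKM + 1) among 14332 genes. These samples share 4 populations that differ in most genes, so the coefficients mainly order genes by population, and they carry no p. Pck1 was most like Cyp2j5 (0.98) and Slc34a1 (0.98), Fbp1 like Glyat (0.98) and Tmem27 (0.98), and G6pc like Slc22a8 (0.97), Cyp24a1 (0.97) and Slc6a19 (0.97). Hk2 was most like Rab7b (0.89), Apbb1ip (0.89) and Fam26f (0.89), and Pkm like Ncstn (0.92), Pea15a (0.90) and Anxa5 (0.90). Ldhb was most like Car2 (0.95), Atp1b1 (0.95) and Atp5a1 (0.94), and Hk1 like Laptm4b (0.85), Sort1 (0.84) and Ppp1cb (0.82). The lowest values were those of Pfkp, with Pros1 (0.82), Capn1 (0.81) and Hsp90ab1 (0.80), and of Ldha, with Txn1 (0.76), Cfb (0.73) and Snx7 (0.70).

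The 9 genes lie on GRCm38 at chr2:173153048-173159273 (Pck1), chr13:62864753-62888282 (Fbp1), chr11:101367561-101377903 (G6pc), chr10:62268855-62379908 (Hk1), chr6:82725025-82774454 (Hk2), chr13:6579768-6648777 (Pfkp), chr9:59656368-59679375 (Pkm), chr7:46841475-46855627 (Ldha) and chr6:142490249-142507957 (Ldhb). Each value is given for the gene as a whole. Processed pseudogenes of Ldha and Pkm share much of their sequence, and the counting could split reads between copies, so small changes in these genes are less certain.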

How the data were processed

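RNA of 4 populations sorted from mouse kidney was sequenced. The authors deposited 1 table of FPKM values per gene and sample, with 2 decimals. FastQC, RSEM, Bowtie2, DESeq2 and mm10 stand in the submitters' processing notes, with versions not given in the sources used here. The files give no counts, so depth is unknown and its part in low values could not be set. Of 46 value columns, 44 were assigned to samples by name. The other 2 share a single sample name and were not used.

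log2(FPKM + 1) was compared with limma 3.58.1 (R 4.3.3, empirical Bayes with a trend) where a gene averaged 1 FPKM or more, with Benjamini-Hochberg adjustment over all genes tested. Each population was fitted with its 3 surgeries, and differences between populations in 1 fit. Tests were two-sided. The fit was tested on simulated data. Shares of isoenzymes were compared by exact permutation tests in Python 3.11.15. The alternatives tried were quantile normalisation, 0.1 as the pseudocount, removal of the low-value filter, mitochondrial genes left out with rescaling, a replicate block, 1 fit of all populations, and each sample left out in turn.

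All members are named, as are up to 4 called genes per pathway list with the lowest adjusted p, and for each member the 3 genes with the highest correlation, apart from 1 gene that is not reported here and was left out of the lists. The members and lists were chosen with earlier results of these data known. The labels do not tie samples to separate mice in full, so p-values measure the spread between samples. Sequences came from RefSeq.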

Additional observations from a re-analysis of the deposited data

Results flagged for a closer look

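Among 88 groups of 4 or more samples searched, a sample stood far from the rest of its group in 6 (Dixon's ratio of the gap to the range), where chance gives about 1 in 20. They were Pck1 in endothelial sham (0.908, replicate 3 at 10.1 FPKM against 4.92 to 5.27 FPKM), Fbp1 in PT UUO (0.853, replicate 2 low at 78.2 FPKM), Hk1 in endothelial sham (0.945, replicate 4 low at 11.5 FPKM), Hk2 in PT UUO (0.898, replicate 1 high at 3.04 FPKM), Ldhb in stromal sham (0.857, replicate 1 high at 312 FPKM) and the Hk2 share in PT UUO (0.904, replicate 1 at 16.5%).

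The change from sham to UUO differed between PT and another population by limma's interaction test for several genes, each given as the change in PT minus the other. Against macrophages these were G6pc (-1.26), Hk1 (3.56), Pfkp (2.08) and Pkm (3.19). Against endothelial cells they were Hk1 (2.71), Pfkp (2.28), Pkm (2.97) and Ldhb (1.78). Against stromal cells they were G6pc (-1.89), Hk1 (4.04), Hk2 (-2.31), Pfkp (2.17), Pkm (3.34), Ldha (-1.57) and Ldhb (3.14). The calls for G6pc ended with a pseudocount of 0.1, and the causes of these differences were not tested.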

How the results depend on the processing

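No log2 change of a member that passed its test turned its sign under any alternative run. The 7 members called in PT UUO against sham passed under each of them, and the sham comparisons called 9, 7 and 8 members whichever sample was left out. Smaller counts moved, and the causes were not tested. The 4 members called in PT rUUO against UUO became 2 with a pseudocount of 0.1 or without mitochondrial genes, and 0 with no filter. In endothelial UUO against sham, the 1 call became 0 with a pseudocount of 0.1, no filter or mitochondrial genes left out, and 3 with all populations in 1 fit, which also gave 2 instead of 0 in rUUO against sham. The 3 calls in macrophages, UUO or rUUO against sham, each became 1 with no filter. The 2 calls in stromal rUUO against UUO became 1 with no filter, a pseudocount of 0.1 or mitochondrial genes left out. Leaving out 1 sample gave 0 to 3 calls in PT rUUO against UUO, 1 to 3 in macrophages for UUO or rUUO against sham, 0 in endothelial UUO against sham, and 1 to 2 in stromal rUUO against UUO.

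Within a population, same-numbered samples of different surgeries deviated together only weakly (correlations from -0.0618 to 0.117), so the numbers were not taken as pairs. With the replicate block, the counts became 2 in PT rUUO against UUO, 1 and 0 in macrophages (UUO and rUUO against sham), 0 in endothelial UUO against sham, 0 in stromal rUUO against UUO and 3 in stromal rUUO against sham. Between populations, samples with the same surgery and number may come from 1 mouse, which the labels do not say. The main fits treated them as independent. A block on surgery and number together had a consensus correlation of 0.0342 over all samples and 0.0528 in sham, and no count of members moved by over 1.5 times.

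Over all genes, calls moved by over 1.5 times in most comparisons when no sample was left out. The counts and their ranges were 3747 (2435 to 3819), 437 (160 to 451) and 852 (484 to 1083) in PT for UUO against sham, rUUO against UUO and rUUO against sham. In the same order they were 665 (346 to 1018), 0 (0 to 35) and 459 (115 to 753) in macrophages, 265 (101 to 423), 8 (0 to 67) and 237 (68 to 452) in endothelial cells, and 3704 (3364 to 4131), 585 (116 to 973) and 2407 (1574 to 2733) in stromal cells. In sham, PT against stromal cells gave 9602 (6316 to 10350). FPKM without counts leave the precision of values near 0 unknown, which limits Hk2 in PT and endothelial cells and G6pc in stromal cells. Tested changes with a group mean under 1 FPKM are limited too. These means were of Hk1 in PT sham, Hk2 in stromal sham, Pck1 in stromal UUO and rUUO, and G6pc in macrophage UUO and rUUO and endothelial UUO.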
